A study of Oncorhynchus mykiss with 6 samples.

Results

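The vascular microRNAs miR-126, miR-143 and miR-145 were examined in the liver of rainbow trout (Oncorhynchus mykiss) kept at 18 °C or warmed to 24 °C. Their members were taken by name, as every listed name that equals one of these families once its closing letter is removed. This gave 6 of the 2730 names in the files, an x and a y name for each of the 3 families, and all 6 passed the filter on low counts. The study compared 3 control libraries (18 °C) with 3 heat libraries (24 °C), asking which miRNAs heat stress induces. All fish were 150 days old per the labels, with a mean weight of 200 ± 5.5 g, and no genetic modification is named. Both groups were acclimated in 500 L tanks at 18 °C, after which the water of the heat group was raised by 1 °C every 24 h. Livers were taken from 12 female fish, in a wording that leaves unclear whether this counts both groups or each. The labels do not tie fish or tanks to libraries. Libraries are therefore samples of a group, and p-values measure the spread between these libraries, which may be technical.

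Total counts (the counts summed over all miRNA names) ran from 9267658 to 12778484 per library. The 2730 names hold 1685 distinct sequences, so reads of a sequence listed under several names can enter a total more than once. Control replicate 2 and heat replicate 1 stood apart from the other 4 libraries. They had normalization factors of 1.25 and 1.24, against 0.87 to 0.92 elsewhere, and 2077 and 2157 names detected, against 1579 to 1701. The smallest count above 0 was 2 in every library, so a listed 0 may also stand for a lower count that was left out. One protocol field of the labels names retina and an RNA preparation that is not one for small RNA. The hepatocyte list of miR-122, miR-192 and miR-194 summed to 306420 ± 98332 normalized CPM (counts scaled to 1000000 per library) in control and 309123 ± 72096 in heat (SD, n = 3), so the markers of the labelled tissue were present in both groups. Each group thus holds 1 library that stands apart, and results are also given without both where that changes them. Values per library are listed below in the order of replicates 1, 2 and 3.

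miR-126 lies in an intron of the endothelial gene egfl7 in vertebrates and is known for keeping vessels intact and for tuning signalling by vascular growth factors. miR-143 and miR-145 are made from 1 cluster in vertebrates and are known in mammals and zebrafish as miRNAs of smooth muscle and other cells of the vessel wall. In liver, vessels and supporting cells are their best known sources. In bulk tissue, fewer cells of a type and less RNA per cell cannot be told apart.

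The sequences listed for the 6 names are given here because the seed, bases 2 to 8 counted from the 5′ end, sets which messenger RNAs a miRNA pairs with. Seeds are in capitals, and T stands for U as in the files.
miR-126-x: cATTATTActtttggtacgcg
miR-126-y: tCGTACCGtgagtaataatgca
miR-143-x: gGTGCAGTgctgcatctctgg
miR-143-y: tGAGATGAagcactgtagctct
miR-145-x: gTCCAGTTttcccaggaatccc
miR-145-y: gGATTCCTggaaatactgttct
The lengths were 21 bases for miR-126-x and miR-143-x and 22 bases for the other 4 names. No seed was shared between the 6 names. For 5 of the 6, no other name in the files carried the seed. The seed of miR-143-x was also held by miR-1711-x, which shares 20 consecutive bases with it and was counted 2 times in all 6 libraries together. Each of the 6 sequences had only 1 name, so their counts are not repeated elsewhere in the files. The files do not define the closing letters. The x and y sequences of a family paired with each other over most of their length. Unrelated pairs were not run for comparison, and the hairpins themselves were not checked. From their shared name and this pairing, the x and y names of a family are treated here as strands of a hairpin. With RNAduplex, 18 bases of miR-126-x paired with miR-126-y, 16 bases of miR-143-x with miR-143-y, and 17 bases of miR-145-x with miR-145-y.

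miR-126-y carries the seed usually named for miR-126 in vertebrates, and it was the most abundant of the 6 names. The controls held 267446, 291619 and 394472 of its reads, and the heat libraries 332184, 308726 and 308796. As normalized CPM this was 30151, 19598 and 39860 in control and 20989, 38303 and 33198 in heat. Control replicate 2 and heat replicate 1 were the lowest of their groups, and the groups overlapped. miR-126-y ranked 10 to 14 by count among the 522 names of known families in every library. Its share of all counts ran from 2.45% in control replicate 2 (exact binomial 95% interval 2.44% to 2.46%) to 3.55% in control replicate 3 (3.54% to 3.56%). Such intervals cover only the sampling of reads and not the spread between libraries. Copies of 1 molecule made by PCR cannot be told apart here, so the intervals can also be too narrow for molecules.

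miR-126-x, the other strand of the same hairpin, measured 2655, 1857 and 1629 CPM in control and 2055, 2319 and 2325 CPM in heat. Its highest and its lowest library were both controls, and the heat libraries lay between them. On library totals alone the values were 2430, 2324 and 1451 CPM in control and 2546, 2016 and 2111 in heat, and heat replicate 1 was then the highest. Within a library, the y strand took 91.1% to 96.1% of the miR-126 counts.

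miR-143-y carries the seed usually named for miR-143, and it was the next most abundant. The controls held 129410, 321234 and 163165 reads, and the heat libraries 232946, 145612 and 157268. As normalized CPM this was 14589, 21589 and 16487 in control and 14719, 18066 and 16908 in heat. Control replicate 2 was the highest of all 6 libraries, and control replicate 1 was the lowest, so the heat values lay inside the control range. miR-143-x, its opposite strand, was the least abundant of the 6 names. It was at 221, 205 and 232 CPM in control and at 291, 206 and 231 CPM in heat. Heat replicate 1 was above the other 5 libraries, which lay close together with this scaling. On library totals alone heat replicate 1 was at 361 CPM, and the other 5 ran from 179 to 256. The smallest count of any member in any library was the 1658 of miR-143-x in heat replicate 2, for which the counting error alone is 2.46%.

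miR-145-y and miR-145-x were closer to each other than the strands of the other families. miR-145-y measured 1410, 1588 and 1419 CPM in control and 1722, 1370 and 1506 CPM in heat. Its highest and its lowest library were both heat libraries. miR-145-x carries the seed that is usually named for miR-145 in mammals, where it is the strand known to repress its targets in smooth muscle. It was at 739, 954 and 963 CPM in control and at 833, 1032 and 1308 CPM in heat. Heat replicates 2 and 3 were above every control, while heat replicate 1 was below control replicates 2 and 3. This order depended on the scaling. On library totals alone the values were 677, 1194 and 857 CPM in control and 1032, 898 and 1187 in heat, so control replicate 2 was the highest of the 6.

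**Figure D1:**
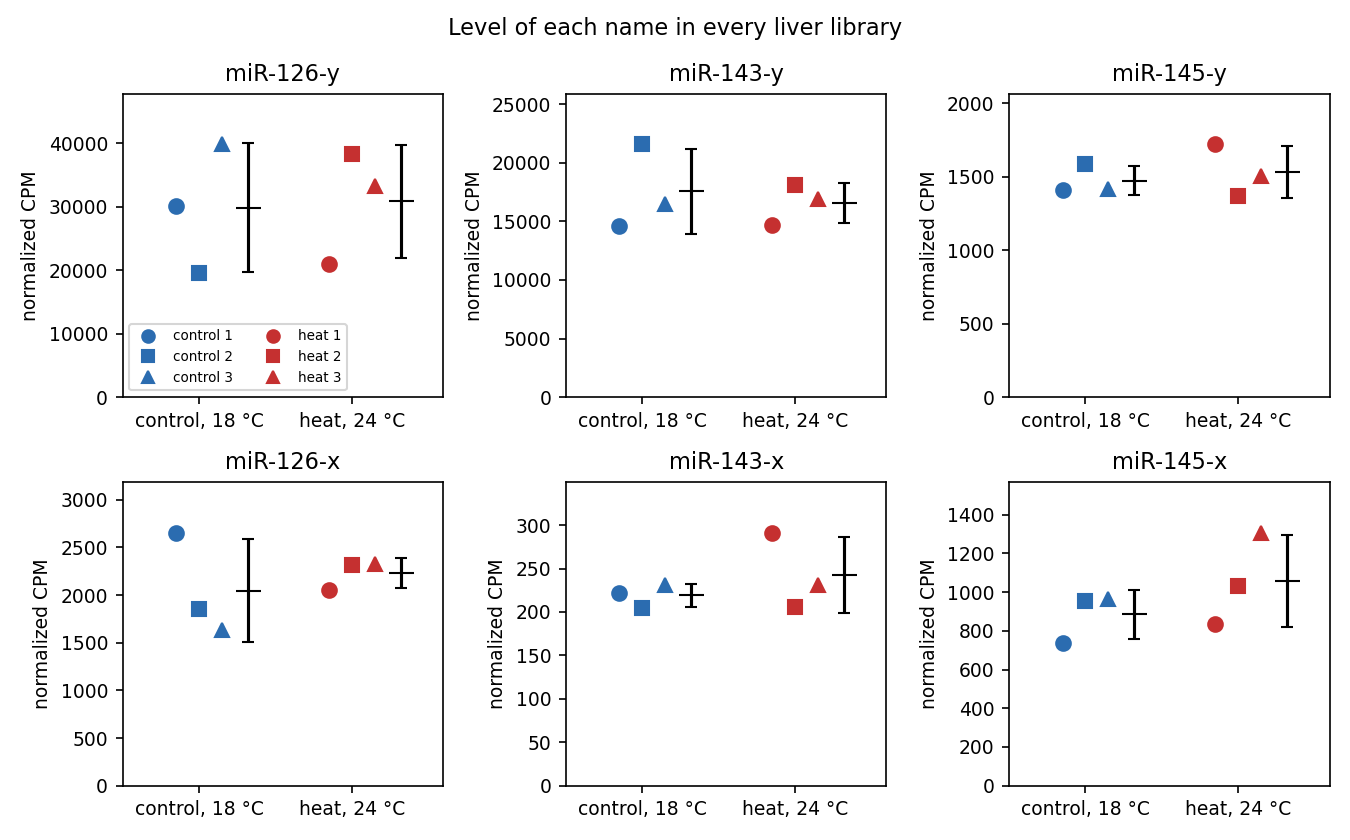
Normalized CPM of the 6 names, 1 panel each with the y axis starting at 0. Points are the 3 control (blue) and 3 heat (red) libraries, marked by replicate number, and bars give the mean and SD of each group; in every panel the groups overlap, and for miR-126-y control replicate 2 (19598) and heat replicate 1 (20989) are the lowest.

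The order of the 6 levels by mean normalized CPM was miR-126-y, miR-143-y, miR-126-x, miR-145-y, miR-145-x and miR-143-x. The ranges of miR-126-y and miR-143-y overlapped across libraries, and miR-126-y was the higher in 5 of 6, the exception being control replicate 2. The ranges of miR-126-x and miR-145-y also overlapped, although miR-126-x was the higher within each of the 6 libraries. With this scaling the ranges of the other neighbours did not overlap. On library totals alone miR-145-y went down to 1191 CPM and miR-145-x reached 1194, so their ranges then touched, although miR-145-y was the higher within each library. These are comparisons of read counts between different sequences. Together the 6 names held 4.55% to 5.73% of all counts of a library.

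None of the 6 names passed the test of heat against control. In edgeR's quasi-likelihood test over 651 names, with Benjamini-Hochberg adjustment at 0.05, 0 of the 6 were called, where 0% of all names tested were called. At an unadjusted p under 0.05 the count was again 0 of 6, where 3.07% of all names passed. DESeq2 also called 0 of the 6, where it called 0.0734% of the names with an adjusted p. The groups overlapped for all 6 names. Over all names tested, heat lay wholly above control for 5.22% and wholly below for 3.07%. Shares over all names count a sequence once for each name it is listed under. With each sequence counted once, 475 names were tested and 10 of them had an unadjusted edgeR p under 0.05. Separation of the groups was not counted in that setting.

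No fitted difference exceeded its SE, although that of miR-145-x came close to it. miR-145-x had the largest, from 886 ± 127 CPM in control to 1058 ± 238 in heat (SD, n = 3), a log2 fold change of 0.26 ± 0.26 (SE; edgeR adjusted p = 0.995). For miR-126-y the levels were 29870 ± 10134 and 30830 ± 8897 CPM (SD, n = 3), a log2 fold change of 0.05 ± 0.34 (SE; edgeR adjusted p = 0.995). For miR-143-y they were 17555 ± 3620 and 16564 ± 1700 CPM (SD, n = 3), a log2 fold change of -0.08 ± 0.24 (SE; edgeR adjusted p = 0.995). The strand miR-145-y stood at 1473 ± 100.3 and 1532 ± 177 CPM (SD, n = 3), with a log2 fold change of 0.06 ± 0.22 (SE). For the minor strands the log2 fold change was 0.13 ± 0.25 (miR-126-x) and 0.15 ± 0.25 (miR-143-x, SE).

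The 95% intervals say how large a difference between the groups this edgeR fit on all 6 libraries leaves room for. They rest on the spread between these libraries, which may be technical, and so need not bound a heat effect in fish. The interval of the log2 fold change was -0.34 to 0.85 for miR-145-x, -0.73 to 0.82 for miR-126-y and -0.63 to 0.46 for miR-143-y. As folds these are 0.790 to 1.80, 0.603 to 1.77 and 0.646 to 1.38. All 6 intervals included 0 and none reached a change of 2-fold, up or down. Intervals are given for this fit alone, so a 2-fold change is not excluded under other scalings or with libraries left out. Fitted log2 fold changes were above 0 for 5 of the 6 names, against 47.2% of all names tested and 35.3% of the known ones, with a median of 0.09 for the 6, -0.12 for the known names and -0.02 for all names. This count was 3 of 6 with control replicate 2 and heat replicate 1 both left out. The strands of a hairpin and the members of a cluster share their source, so these are not taken as 6 independent values.

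The fitted sizes rested on single libraries. Without heat replicate 1, miR-145-x had a log2 fold change of 0.42 (edgeR adjusted p = 0.899), and without heat replicate 1 and control replicate 2 it was again 0.42 (edgeR adjusted p = 0.700). Leaving out control replicate 1 gave 0.11 and leaving out heat replicate 3 gave 0.12. For miR-126-y, leaving out control replicate 2 gave -0.18 and leaving out control replicate 3 gave 0.36. For miR-143-y it was 0.09 without control replicate 2 and -0.23 without control replicate 1. None of the 6 names passed the threshold with any library left out.

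**Figure D2:**
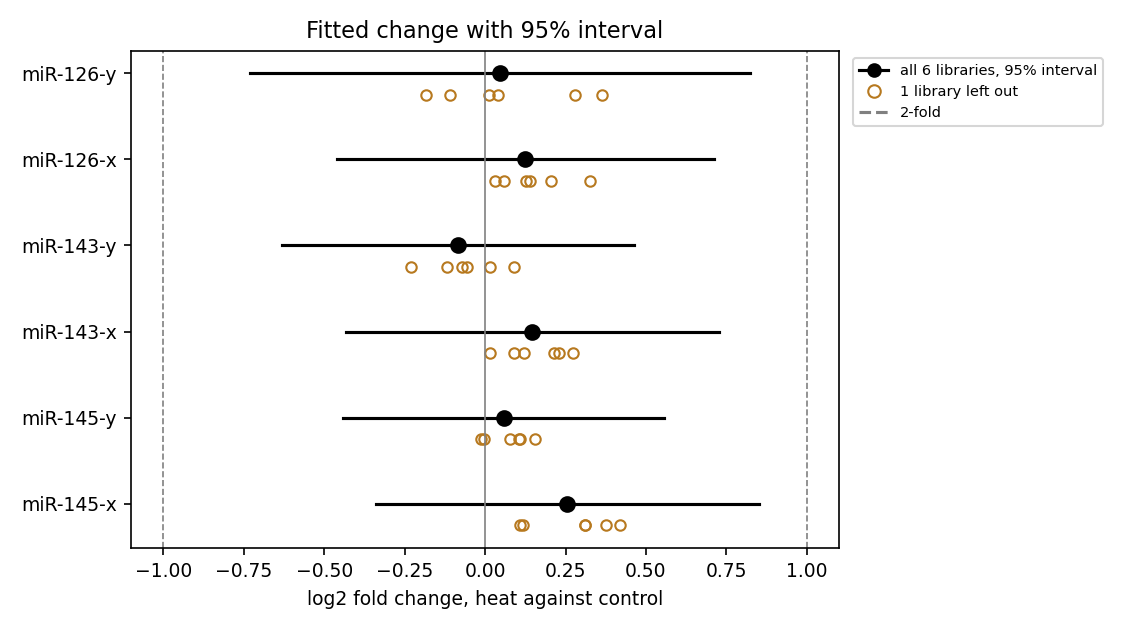
Log2 fold change of heat against control for the 6 names on the x axis. Black points are the fit on all 6 libraries with its 95% interval, open circles the fits with 1 library left out, and dashed lines mark 2-fold; all 6 intervals include 0 and lie inside the 2-fold lines.

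The ratio of 2 names within a library does not depend on how libraries are scaled, and 6 such ratios were computed. The first 3 compare the strands of a hairpin. miR-126-y exceeded miR-126-x 11.4-, 10.6- and 24.5-fold in control and 10.2-, 16.5- and 14.3-fold in heat. Control replicate 3 had the highest ratio, and the other 5 libraries lay well below it. miR-143-y exceeded miR-143-x 65.9-, 105- and 71.2-fold in control and 50.5-, 87.8- and 73.2-fold in heat. Control replicate 2 was the highest here and heat replicate 1 the lowest. For miR-145 the ratio of y to x was 1.91, 1.66 and 1.47 in control and 2.07, 1.33 and 1.15 in heat. miR-145-y was thus counted more often than miR-145-x in 6 of 6 libraries, with 53.5% to 67.4% of the counts of both.

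With all 6 libraries, no strand ratio differed between the groups beyond the spread of the libraries. Of miR-126 counts, the y strand held 93.1% ± 2.58 among controls and 92.9% ± 1.67 among heat libraries (SD, n = 3, two-sided exact permutation p = 0.8). For miR-143 it held 98.7% ± 0.294 and 98.5% ± 0.422 (SD, n = 3, exact permutation p = 0.6), and for miR-145 62.5% ± 3.02 and 59.3% ± 7.21 (SD, n = 3, exact permutation p = 0.5). These p-values were computed on log2 ratios, and after adjustment over the 6 ratios each was 1. With 3 libraries against 3 the exact test cannot give a p under 0.1, and with fewer libraries this limit is higher. Without heat replicate 1, the heat minus control difference for miR-145 was -0.44 in log2 (exact permutation p = 0.2), against -0.19 with all 6. This p of 0.2 is the smallest the test can give with 1 library left out. Heat replicates 2 and 3, at 1.33 and 1.15, lay below every control. With control replicate 2 also left out, the differences were -0.44 for miR-145, -0.12 for miR-126 and 0.23 for miR-143.

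The other 3 ratios compare the most abundant names of the families. The families miR-143 and miR-145 form a cluster in vertebrates, but the positions of the trout names were not checked here. miR-143-y exceeded miR-145-y 10.3-, 13.6- and 11.6-fold in control and 8.55-, 13.2- and 11.2-fold in heat. The groups overlapped, at 11.9 ± 1.64 and 11.0 ± 2.33 (SD, n = 3, exact permutation p = 0.6). The ratio of miR-143-y to miR-126-y was 0.484, 1.10 and 0.414 in control and 0.701, 0.472 and 0.509 in heat (exact permutation p = 0.9). The ratio of miR-145-y to miR-126-y was 0.0468, 0.0810 and 0.0356 in control and 0.0820, 0.0358 and 0.0454 in heat (exact permutation p = 1). In both of these ratios to miR-126-y, control replicate 2 and heat replicate 1 were the highest of their groups and above every other library. The group means of both ratios differed by less than their SDs, at -0.13 in log2 for miR-143-y (SD 0.76 in control and 0.30 in heat) and -0.0069 for miR-145-y (SD 0.60 and 0.62).

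**Figure D3:**
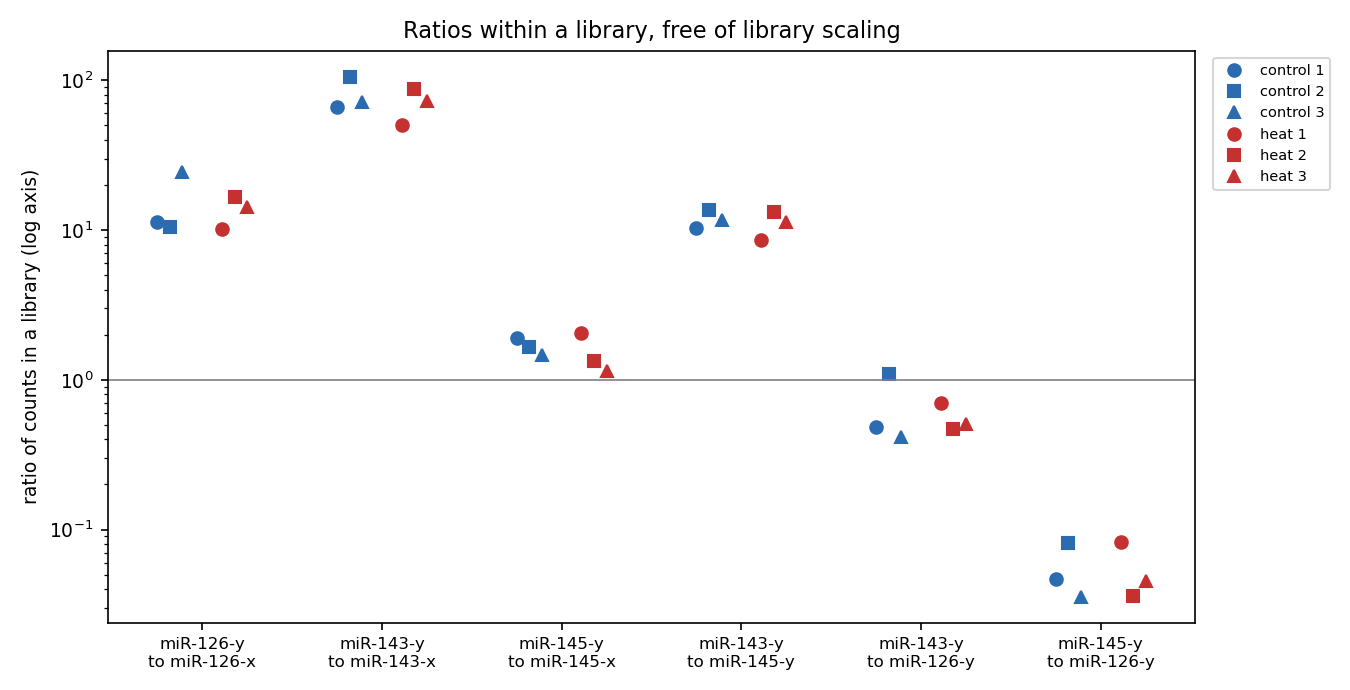
Ratio of the counts of 2 names within each library, on a log axis, for 3 strand pairs and 3 pairs of families. Points are the 3 control (blue) and 3 heat (red) libraries, marked by replicate number; miR-145-y to miR-145-x stays between 1.15 and 2.07, and both ratios to miR-126-y are highest in control replicate 2 and heat replicate 1.

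The summed levels of the marker lists varied over the same libraries. The hepatocyte, stromal and striated muscle lists were lowest in control replicate 2 and heat replicate 1 with TMM-adjusted CPM. The other lists had other patterns. The normalization factors of control replicate 2 and heat replicate 1, 1.25 and 1.24, lower their CPM. List sums on library totals alone were not computed. The orders of libraries in this paragraph are therefore given for this scaling alone and can change without it. The 5 pancreas names, all with counts, summed to 150 to 346 CPM in control and 184 to 291 in heat, and were highest in control replicate 2 (346) and heat replicate 1 (291). Their most abundant name, miR-375-y, did not follow the sum, at 98.6, 105 and 111 CPM in control and 146, 142 and 194 in heat. With this scaling, every heat library was above every control for this name (log2 fold change 0.62, edgeR adjusted p = 0.948). The same held for 5.22% of all names tested. Of the 4 pancreas names tested, 2 were above 0 and 2 below, and 0 passed. Their median log2 fold change was -0.22, with values from -2.12 to 0.62. The 7 hepatocyte names, all with counts, ran from 193821 to 375385 CPM in control and from 227286 to 363263 in heat, and were lowest in control replicate 2 (193821) and heat replicate 1 (227286). The 4 stromal names of miR-199 and miR-214, all with counts, ran from 59548 to 129400 CPM in control and from 68693 to 119339 in heat. They were again lowest in control replicate 2 (59548) and heat replicate 1 (68693). Their most abundant name, miR-199-x, followed the sum, at 115078, 39488 and 111101 CPM in control and 57211, 107296 and 97218 in heat. Erythrocyte names summed to 5056, 6708 and 3896 CPM in control and 4230, 5653 and 5848 in heat, highest in control replicate 2 but lowest of the heat group in heat replicate 1. Leukocyte names summed to 2967, 2504 and 1368 CPM in control and 2793, 958 and 1436 in heat, highest in control replicate 1. The endothelial-linked names described in the next paragraph summed to 18986, 19567 and 26917 CPM in control and 17105, 26330 and 18500 in heat, lowest in heat replicate 1 and, among controls, in control replicate 1. All of these names had counts. The part of these cell types in the ratios to miR-126-y was not tested. The 8 names of striated muscle, from miR-1, miR-133, miR-206 and miR-499, summed to 57.3 to 81.1 CPM in control and 60.7 to 71.1 in heat. This was far under the level of miR-143-y and miR-145-y in every library. The family miR-208 also belongs to this list, but no name of it was listed for these libraries, so it has no value here.

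Other miRNAs linked to endothelium and stroma gave no call either. The list of miR-221, miR-222, miR-23, miR-24, miR-27 and miR-130, miRNAs described in endothelial cells though not limited to them, had 12 of 13 names tested. Of these 5 were above 0 and 7 below, 0 passed the edgeR test, and the median log2 fold change was -0.05, with values from -0.28 to 0.21. Its most abundant name, miR-27-y, measured 11236, 10116 and 16441 CPM in control and 8772, 15504 and 9548 CPM in heat. Of the 4 stromal names tested, 1 was above 0 and 3 below, 0 passed, and the median was -0.15. Blood cells run in the same vessels. Of 6 leukocyte names tested, from miR-142, miR-150, miR-155 and miR-223, 6 were below 0 and 0 passed, with a median of -0.45. Of 5 erythrocyte names, 3 were below 0 and 0 passed, with a median of -0.08. For the 249 known names tested, the class from which these lists are drawn, the median was -0.12 and 161 were below 0, against a median of -0.02 for all names.

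Names with a profile over the 6 libraries like that of each family's most abundant name were sought among 96 other known names with a mean of at least 100 CPM. Likeness was Pearson's r of log2 CPM over 6 libraries, which share their scaling and the libraries that stand apart, and it is given as a description. For miR-126-y the closest were miR-122-x, the main hepatocyte miRNA, at r = 0.949, miR-23-y at 0.940 and miR-459-y at 0.929. Like miR-126-y, these 3 were lower in control replicate 2 and heat replicate 1 than in any other library. For miR-143-y they were miR-30-y at 0.978, miR-222-x at 0.971 and miR-148-y at 0.919, all highest in control replicate 2. For miR-145-y they were miR-210-z, of a family known in mammals to respond to low oxygen, at 0.9995, miR-135-x at 0.897 and miR-22-x at 0.815. miR-210-z was at 160, 208 and 161 CPM in control and at 248, 147 and 183 in heat, in the same order of libraries as miR-145-y. With CPM on library totals alone, miR-210-z, miR-135-x and miR-22-x were still the 3 closest to miR-145-y (r = 0.996, 0.966 and 0.970) and the same 3 names closest to miR-126-y (0.786 for miR-122-x, 0.843 for miR-23-y and 0.845 for miR-459-y). For miR-143-y, miR-30-y was then at place 2 of 96, miR-222-x at place 9 and miR-148-y at place 28.

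**Figure D4:**
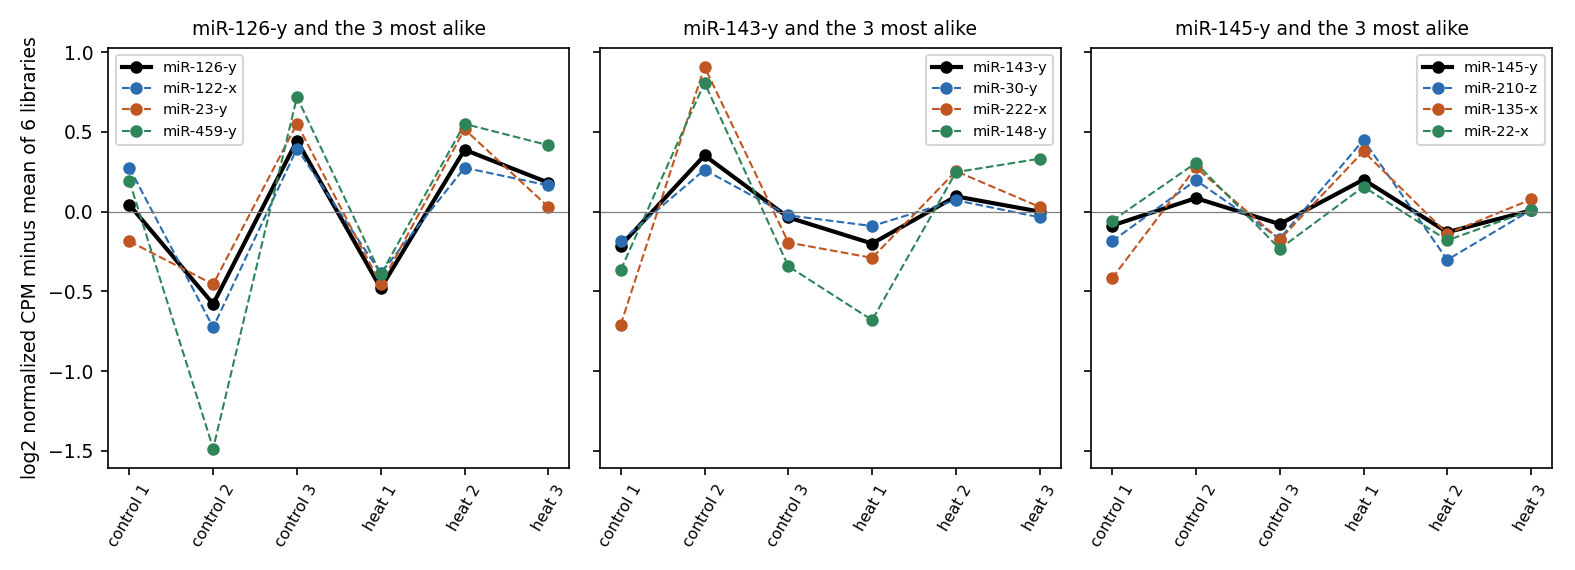
Log2 normalized CPM minus the mean of 6 libraries for the most abundant name of each family (black) and the 3 known names most like it. The x axis gives the 6 libraries, which have no order, and lines only guide the eye; miR-126-y and its 3 are low in control 2 and heat 1, and miR-143-y and its 3 are highest in control 2.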

How the data were processed

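Small RNA counts of 6 trout liver libraries were used, grouped by sample title. Per the file headers, each file gives a length, a sequence, a count, a TPM value and a total for every miRNA name. The count column, whole numbers as deposited by the authors, was used in all tests. The authors' deposited TPM score writes 0.01 where the count is 0 and was not used. The steps that aligned and named the reads, the build and the small RNA kit were not given in the sources used here.

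Heat was compared with control by the quasi-likelihood test of edgeR 4.0.16 (R 4.3.3, robust, TMM) on the 651 names kept by filterByExpr at a minimum count of 10. P-values were adjusted over all 651 by Benjamini-Hochberg, with a threshold of 0.05. The SE is the log2 fold change divided by the root of its F statistic, and 95% intervals use Student quantiles at the degrees of freedom of the fit. CPM values use TMM-adjusted library sizes. Ratios were tested with a two-sided exact permutation test. Strand pairing used RNAduplex of ViennaRNA 2.7.2. The procedure was tested on simulated data of 651 names of all levels. There edgeR called 13.7% of the simulated 2-fold changes and 61.4% of the 4-fold changes, and 2.40% of its calls were false. Each of the 10 runs changed 200 of the 651 names and drew every name independently. The real comparison had 0 calls, so these rates need not hold for it. Replicate pairs differed beyond sampling noise (chi-square per degree of freedom 78.5 to 2737), so each library was counted as 1.

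Alternatives were DESeq2 1.42.0, its size factors, library totals alone, other count filters, libraries left out, a replicate block, each sequence counted once, no robust estimation and, for ratios, a pseudocount of 0.5. The members, the lists and the rule for naming were chosen with earlier results of these data known. The rule named all 6 members and the 3 names most like each family's most abundant name. It also named the most abundant name of each list, with its level per library where a result moves with it. These were miR-27-y, miR-199-x, miR-122-x and miR-375-y, named above. For the other lists they were miR-451-x (erythrocyte), miR-142-x (leukocyte) and miR-499-x (striated muscle).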

Additional observations from a re-analysis of the deposited data

How the results depend on the processing

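No name of miR-126, miR-143 or miR-145 passed the threshold in any of the 15 alternative settings of the fit (90 values, adjusted p from 0.700 to 1), and the lowest unadjusted p among them was 0.116. The count of names called over the whole table was 0 throughout, except 2 with DESeq2 and 23 in edgeR without a count filter. With any 1 library left out it was 0, with 26 to 49 names at an unadjusted p under 0.05, against 20 with all 6. The cause of the 2 differing counts was not tested. With control replicate 2 and heat replicate 1 both left out, log2 fold changes reversed to -0.0018 for miR-126-y, -0.086 for miR-143-x, 0.14 for miR-143-y and -0.0099 for miR-145-y. In the same setting, the heat minus control differences of the log2 ratios reversed to 0.13 (miR-143-y to miR-126-y), 0.23 (miR-143-y to miR-143-x) and 0.15 (miR-143-y to miR-145-y). The cause was not tested.

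With 1 library left out, log2 fold changes ran from 0.031 to 0.33 for miR-126-x, -0.18 to 0.36 for miR-126-y, 0.014 to 0.27 for miR-143-x, -0.23 to 0.089 for miR-143-y, 0.11 to 0.42 for miR-145-x and -0.014 to 0.16 for miR-145-y. Differences of log2 ratios ran from -0.31 to 0.29 for miR-126-y to miR-126-x, -0.38 to 0.020 for miR-143-y to miR-143-x, -0.44 to -0.014 for miR-145-y to miR-145-x, -0.27 to 0.047 for miR-143-y to miR-145-y, -0.40 to 0.30 for miR-143-y to miR-126-y and -0.35 to 0.32 for miR-145-y to miR-126-y.

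Deviations from the group mean correlated at 0.116, -0.220 and 0.065 between libraries of equal number, and 1 of 6 libraries was closest to its own number, so the numbers were not taken as a pairing. The replicate block called 0 names, with log2 fold changes of 0.24 for miR-145-x, 0.05 for miR-126-y and -0.07 for miR-143-y. The exact permutation test of ratios cannot reach the threshold at this number of libraries.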

Other observations

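How steady these names looked over the 6 libraries depended on the scaling, a comparison chosen after the data were seen. With TMM-adjusted CPM, miR-145-y varied 1.26-fold from its lowest to its highest library, and only 2 of 102 known names with a mean of at least 100 CPM had a smaller SD of log2 CPM. On library totals alone it varied 1.79-fold, and 44 of the 102 had a smaller SD. For miR-126-y the change went the other way, from 2.03-fold, with 66 names below it, to 1.45-fold, with 9 below it. The correlation of the strands of miR-126 over the 6 libraries was r = 0.09 with TMM and -0.86 on library totals, given as a description. Between the most abundant names of the families, miR-126-y and miR-145-y were at -0.86 with TMM and -0.82 on library totals. In the same order, r was -0.21 and -0.65 for miR-126-y and miR-143-y, and -0.01 and 0.77 for miR-143-y and miR-145-y. The strand ratios above do not change with scaling.

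A sequence listed under 2 names of predicted miRNAs shares 19 consecutive bases with miR-126-x and begins further along it, so that its seed, in capitals, differs.
predicted: tTATTACTtttggtacgcgcta
Controls held 4, 2 and 0 reads of it and heat libraries 5, 2 and 0, in the order of replicates 1, 2 and 3. These counts lie near 2, the smallest count above 0 in every library.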
